A study of Mus musculus with 12 samples.

Results

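Genes of the sarcomere and of skeletal muscle were followed across bulk RNA-seq libraries of interscapular brown adipose tissue, the heat-producing fat depot between the shoulder blades of rodents. The set was given by name and comprised 35 genes, of 54356 genes with a value in the files. They were listed as 11 fast fibre filament genes, 6 slow fibre filament genes and 11 genes of the Z-disc, titin and nebulin. The others were 5 calcium-handling genes, and Ckm and Mb. Acta1, skeletal alpha-actin, was placed in the fast list by this grouping, which is not a result of these data. All 35 passed the filter on low counts, as did 13876 genes in all.

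The animals were 6 cold and 6 ctrl mice, all wild type C57BL/6N males aged 20 weeks. Cold animals were kept alone at 4 °C for 24 h before harvest. The colony was kept at 22 to 24 °C. The labels attach the cold treatment text to the ctrl animals too, and it was taken to describe the cold group alone. How the ctrl animals were housed on the last day is not stated separately, and if they were not alone, cold and single housing cannot be told apart. The series text gives 3 cold animals although 6 are labelled so, and eWAT, a white fat depot, is named in the extraction text although the tissue label is brown fat. Poly(A) RNA of each animal was read once, to 15.985 to 31.424 M estimated reads.

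The sarcomere is the contractile unit of striated muscle. Thick filaments of myosin pull on thin filaments of actin when calcium binds the troponin complex of the thin filament. The Z-disc anchors the thin filaments, titin spans from it to the middle of the sarcomere, and nebulin runs along the thin filament. Fast and slow fibres use different genes for the same part, and slow, oxidative fibres hold more myoglobin, the oxygen-binding protein encoded by Mb. Brown adipocytes descend from progenitors related to those of skeletal muscle, and the interscapular depot lies against back muscles.

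The start regions of 4 members are shown because Mb and Actn2 stood higher in cold at an equal level of other muscle genes, while Ckm and Myh4 had no such call. The sequences are RefSeq's on GRCm38.p6 and run from 250 bases before to 50 bases after the annotated start, on the gene's strand. Mb is at chr15:77022738-77023037 (minus strand), Actn2 at chr13:12340683-12340982 (minus), Ckm at chr7:19410844-19411143 (plus) and Myh4 at chr11:67237562-67237861 (plus). Capitals mark matches, on either strand, to the E-box letters CANNTG and to the MEF2 motif. Myogenic factors such as MyoD bind some forms of the E-box letters, and not every match is of such a form.
Mb: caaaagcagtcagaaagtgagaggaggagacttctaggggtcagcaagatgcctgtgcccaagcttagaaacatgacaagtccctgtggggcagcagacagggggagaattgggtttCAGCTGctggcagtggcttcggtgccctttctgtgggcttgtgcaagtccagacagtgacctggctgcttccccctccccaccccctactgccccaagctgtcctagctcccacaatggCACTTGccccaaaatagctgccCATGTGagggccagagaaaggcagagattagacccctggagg
Actn2: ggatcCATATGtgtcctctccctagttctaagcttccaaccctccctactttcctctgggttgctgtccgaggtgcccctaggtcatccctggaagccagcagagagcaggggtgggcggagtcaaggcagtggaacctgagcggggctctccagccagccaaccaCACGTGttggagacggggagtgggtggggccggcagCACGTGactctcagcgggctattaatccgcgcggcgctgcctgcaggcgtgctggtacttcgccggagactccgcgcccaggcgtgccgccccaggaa
Ckm: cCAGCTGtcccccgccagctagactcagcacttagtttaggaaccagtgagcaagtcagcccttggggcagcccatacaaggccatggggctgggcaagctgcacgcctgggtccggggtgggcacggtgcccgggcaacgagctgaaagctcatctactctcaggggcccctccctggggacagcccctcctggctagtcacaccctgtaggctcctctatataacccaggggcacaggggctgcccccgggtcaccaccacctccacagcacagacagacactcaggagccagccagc
Myh4: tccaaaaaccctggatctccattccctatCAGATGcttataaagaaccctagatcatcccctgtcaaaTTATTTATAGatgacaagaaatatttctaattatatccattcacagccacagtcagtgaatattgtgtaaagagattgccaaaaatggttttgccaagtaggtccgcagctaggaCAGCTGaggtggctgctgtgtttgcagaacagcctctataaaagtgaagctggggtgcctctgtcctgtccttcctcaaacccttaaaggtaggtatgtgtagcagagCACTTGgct

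With the annotated start as position 0, the E-box letters of the Mb window began at positions -133, -14 and 8. The Actn2 window also held 3 E-box matches, the Ckm window 1 and the Myh4 window 3. Among these 4 windows the MEF2 motif was found in that of Myh4, from position -182 to -173. The table held windows of 27 of the 35 members, 34 windows in all, of 32851. E-box letters were in 28 of the members' 34 windows, and in 72.3% of all windows. The MEF2 motif was in 7 of the 34 (those of Casq2, Myh1, Myh4, Myoz2, Pvalb, Ttn and Xirp2), and in 3.19% of all windows. The CArG box, bound by serum response factor, was in 4 of the 34 (Acta1, Ldb3 and Myh4), and in 1.63% of all windows. The letters TATAAA, which can overlap a MEF2 match, were in 7 of the 34 and in 13.6% of all windows. The letters TNAAGGTCA, bound by oestrogen-related receptors, were in 0 of the 34 and in 1.28% of all windows. A match is a match of letters only.

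The members made up very different shares of the libraries. They held 0.0357% to 0.872% of reads in cold animals and 0.0271% to 0.225% in ctrl animals. Levels are given as CPM, read counts scaled to a common library size by TMM, and levels of different genes as CPM per kb of transcript. By mean CPM per kb the highest members were Tnnt3 (147), Acta1 (117.5), Myl1 (96.1), Ckm (72.9), Tnni2 (70.02) and Myh4 (64.2). Casq2 was the lowest (0.747), followed by Xirp2 (1.44) and Cacna1s (2.32). The most abundant members were therefore genes of the fast filament list, in which Acta1 is placed, and the muscle creatine kinase. Ucp1, the uncoupling protein that marks brown adipocytes, stood at 9222 to 11265 CPM in cold and 6549 to 11131 CPM in ctrl, so the tissue label held in every library.

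A muscle index summarised each library by 18 other skeletal muscle genes, none of them a member: it was their mean log2 CPM, and included Atp2a1, the fast fibre calcium pump, and Ryr1, the calcium release channel. The index was 1.45, 0.40, 3.78, 2.73, 5.12 and 1.97 in cold mice 4, 7, 11, 12, 15 and 16. In ctrl mice 2, 5, 6, 9, 10 and 14 it was 0.044, 2.4, -0.10, 2.14, 2.98 and 2.51. Cold 15 stood highest, cold 11 also lay above all ctrl animals, and ctrl 6 and ctrl 2 stood lowest. The rest of the groups overlapped. On a linear scale the highest library had 37.4 times the lowest. The index averaged 2.57 ± 1.69 in cold and 1.66 ± 1.34 in ctrl (SD, n = 6 each), a difference of 0.91 (exact two-sided permutation p = 0.329, where 924 assignments allow a smallest p of 0.00216). Without cold 15 the difference was 0.40 (exact permutation p = 0.613). In bulk tissue, fewer muscle cells and less RNA per muscle cell cannot be told apart.

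Across animals the members rose and fell together. Of the 35 members, 34 had a positive slope on the muscle index within the groups at an adjusted p under 0.05 (quasi-likelihood test of edgeR, Benjamini-Hochberg adjustment over all genes), against 1.6% of all genes tested. None had a called negative slope, against 0.0865% of all genes. The slope is the change in log2 CPM per log2 unit of index, so that 1 means a proportional change. The members' median slope was 1.07, against -0.004 for all genes, and 24 of them lay between 0.85 and 1.2. All 35 members were highest in cold 15. The lowest library was ctrl 2 for 16 members, ctrl 6 for 13 and another for 6. Without cold 15, 32 slopes were called and the median was 1.12.

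**Figure D1:**
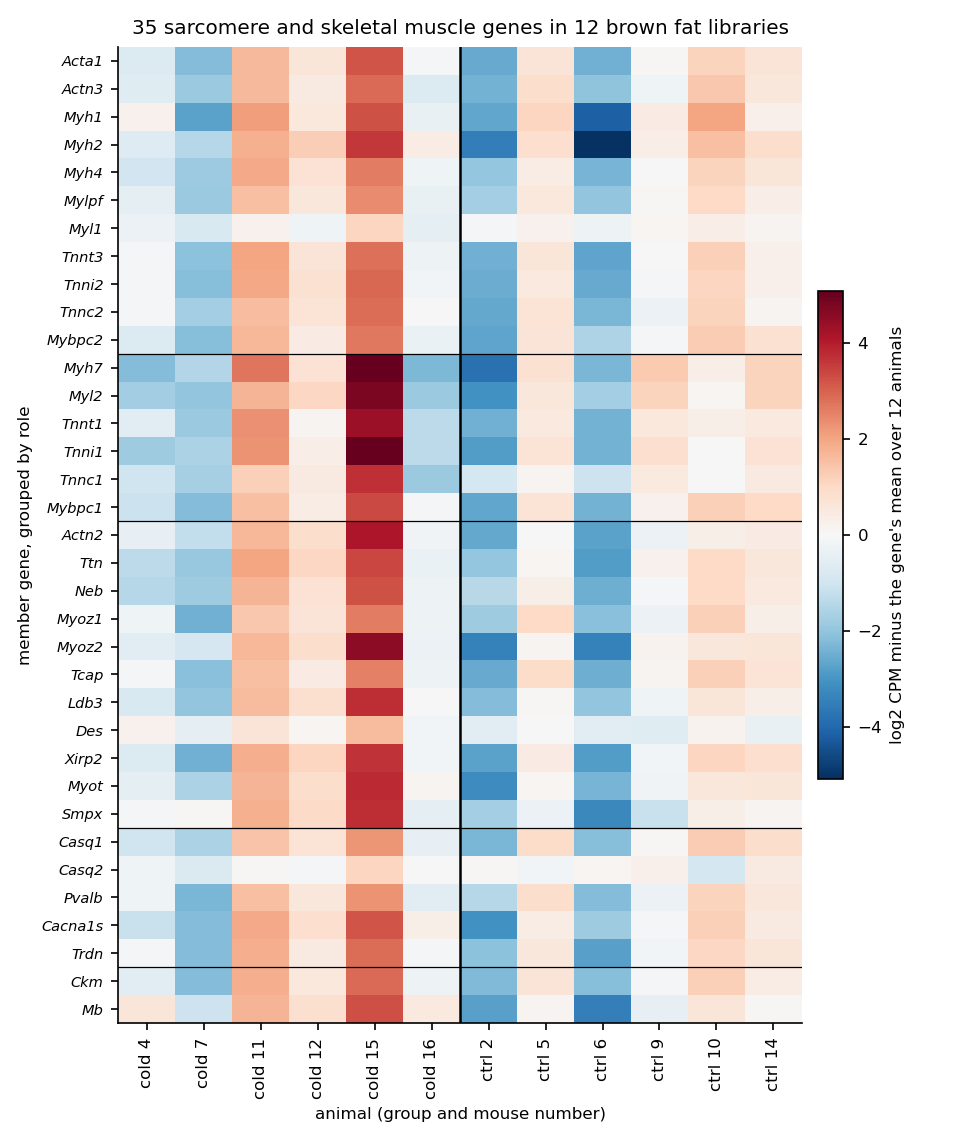
Log2 CPM of the 35 members (rows, grouped by role from fast fibre, slow fibre, Z-disc with titin and nebulin, calcium handling to energy and oxygen) in 6 cold (left) and 6 ctrl (right) animals, each gene less its mean over 12 animals. Cold 15 is the highest library in every row, ctrl 2 and ctrl 6 are among the lowest in most, and Myl1, Des and Casq2 are pale.

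Tnnt3, the fast skeletal troponin T and the most abundant fast member, ranged from 19.9 to 586 CPM in cold (median 104.65) and from 13.2 to 195 CPM in ctrl (median 92.4). The groups overlapped over most of their range, and cold 15 and cold 11 stood above all ctrl animals. Its slope was 1.09 ± 0.07 (SE; adjusted p = 1.13e-07, edgeR). The 11 fast filament genes all had called slopes, with a median of 1.07. Acta1, skeletal alpha-actin of the thin filament, had a slope of 1.15, and Myh4, the type IIb myosin heavy chain, one of 1.03. Mylpf, the fast regulatory light chain, and Tnni2 and Tnnc2, the fast troponins I and C, had slopes of 0.91, 1.07 and 0.99.

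Of the 8 members with a slope over 1.2, 4 were slow fibre filament genes. Myh7, the slow and cardiac beta myosin heavy chain, ranged from 2.92 to 487 CPM in cold (median 14.9) and from 0.986 to 36.8 CPM in ctrl (median 21.9). Only cold 15 and cold 11 exceeded the highest ctrl animal, and cold 16 and cold 4 were near the lowest. The slope of Myh7 was 1.56 ± 0.20 (adjusted p = 0.00225, edgeR), and without cold 15 it was no longer called (1.42, adjusted p = 0.0569, edgeR). Myl2, the slow regulatory light chain, had a slope of 1.56, Tnni1, slow troponin I, 1.70, and Tnnt1, slow troponin T, 1.34. Mybpc1, the slow myosin-binding protein C, had 1.2, and Tnnc1, the slow and cardiac troponin C, had 1.03 as a gene sum. The coding transcript Tnnc1-202 alone had a slope of 1.3, and without cold 15 the slope of the Tnnc1 gene sum was 0.70. The other slopes over 1.2 were those of Myh1 and Myh2 (both 1.31), the type IIx and IIa myosins, Myoz2, the slow fibre calsarcin of the Z-disc (1.39), and Xirp2, an actin-binding protein (1.26).

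A further 3 members moved far less than the rest: Myl1, Des and Casq2. Myl1, the fast essential light chain, ranged from 41 to 151 CPM in cold (median 59.4) and from 58.8 to 89.0 CPM in ctrl (median 76.7), with a slope of 0.29 ± 0.04 (adjusted p = 0.000199, edgeR). Des, the intermediate filament desmin, which smooth muscle also makes, ranged from 77.3 to 319 CPM in cold and from 70.1 to 119.9 CPM in ctrl, with a slope of 0.32 ± 0.05 (adjusted p = 0.00404, edgeR). The slope of Des was not called without cold 15 (0.22, adjusted p = 0.0624, edgeR). Casq2, the cardiac and slow fibre calsequestrin of the calcium store, ranged from 0.958 to 3.67 CPM in cold and from 0.855 to 2.29 CPM in ctrl. Its slope of 0.20 ± 0.09 was not called (adjusted p = 0.43, edgeR), and its reads summed to 435 over all animals. The fold between highest and lowest library was 3.68 for Myl1, 4.56 for Des and 4.30 for Casq2, against a median of 53.9 over the 34 members read in every library. Myoz2, the remaining member, had no read in ctrl 2 and ctrl 6, and its highest library had 24.4 CPM.

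**Figure D2:**
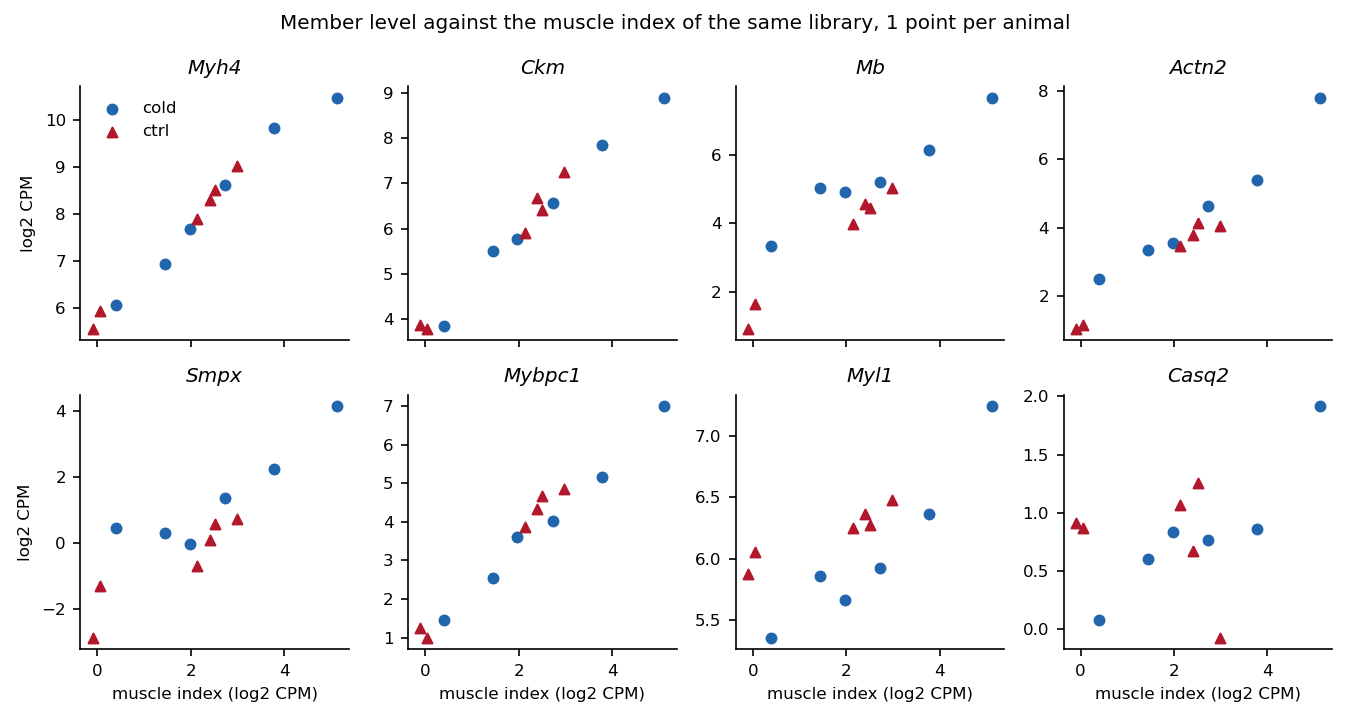
Log2 CPM of 8 members against the muscle index of the same library, 1 point per animal (cold circles, ctrl triangles). Myh4, Ckm and Mybpc1 follow the index closely, Mb, Actn2 and Smpx lie higher in cold at a given index, and Myl1 and Casq2 change little.

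The comparison of cold with ctrl asks whether these genes differ in level after the day at 4 °C. No member was called, 0 of 35 at an adjusted p under 0.05 by edgeR's quasi-likelihood test, against 31.6% of all genes. At an unadjusted p under 0.05 there were 4 members, against 41% of all genes, and DESeq2 called 3 (Actn2, Smpx and Mb). No member had groups that did not overlap, against 16.3% of all genes. The log2 fold change was above 0 for 34 of 35 members, against 49% of all genes, with a median of 1.23, against -0.007 for all genes. Its median SE over the members was 0.91. Without cold 15 the median was 0.39 and 30 members were above 0, and without cold 15 and ctrl 2 it was 0.19 and 22 were above 0.

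Holding the muscle index equal asks which members differ between the groups beyond the amount of muscle RNA in the library. Here 9 of 35 members were called, against 30.8% of all genes, so that the share was no higher than the background. Mb, Smpx, Actn2 and Myot were higher in cold (4 members, background 16.3%), and Mybpc1, Casq1, Mybpc2, Actn3 and Myl1 were lower (5 members, background 14.5%). The median over the members was -0.20, against -0.009 over all genes, and 24 of the 35 were below 0. The median SE was 0.18. The other 26 members ran from -0.67 to 0.48 and were not called. Without cold 15, Mb, Smpx and Actn2 were called higher and Mybpc1, Casq1 and Myl1 lower.

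**Figure D3:**
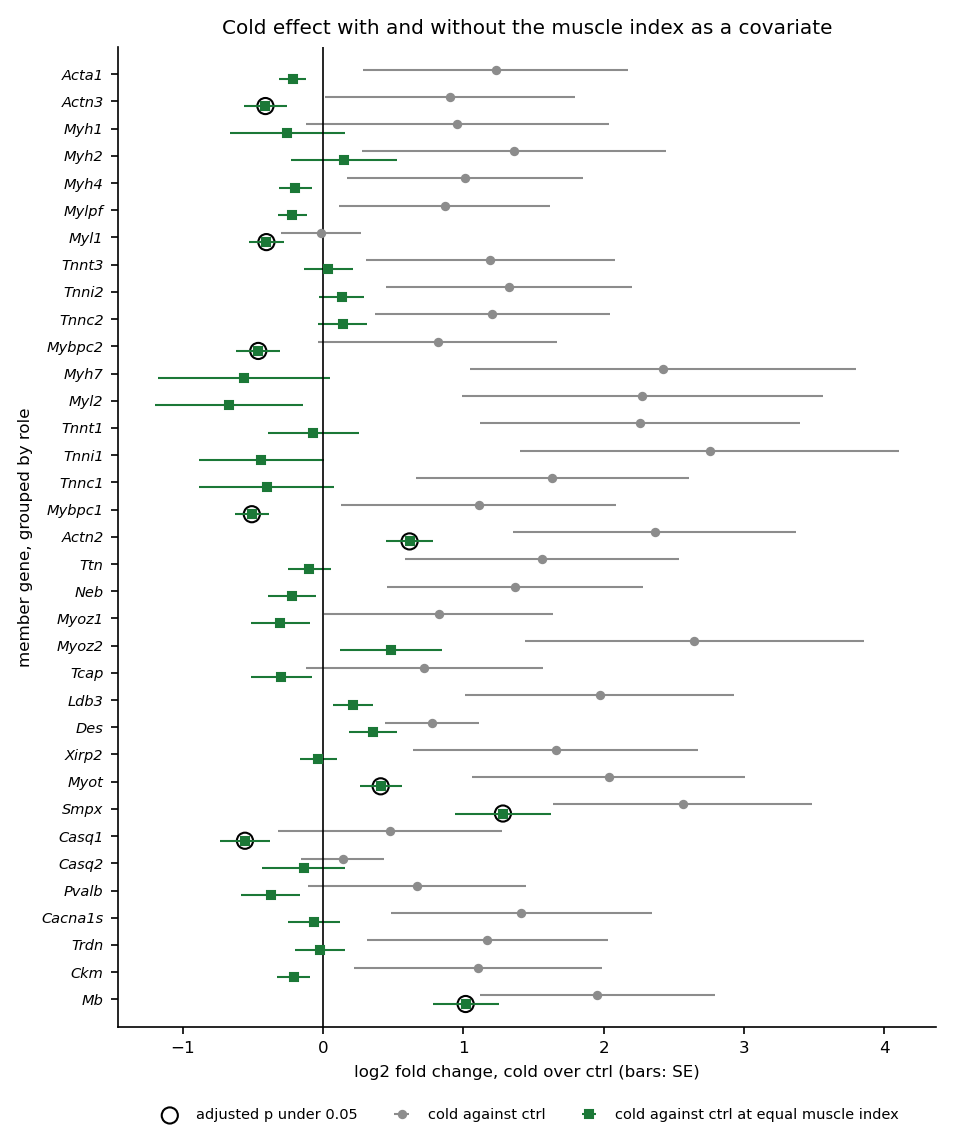
Log2 fold change of cold over ctrl with its SE for each member, without (grey circles) and with (green squares) the muscle index as a covariate, n = 6 each. Rings mark an adjusted p under 0.05 in the fit with the index: Mb, Smpx, Actn2 and Myot lie above 0 and Mybpc1, Casq1, Mybpc2, Actn3 and Myl1 below it, and no grey point is called.

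Mb had 32.4, 10.1, 69.5, 36.6, 201 and 29.8 CPM in cold mice 4, 7, 11, 12, 15 and 16. In ctrl mice 2, 5, 6, 9, 10 and 14 it had 3.08, 23.4, 1.82, 15.6, 32.5 and 21.7 CPM. Cold 7, the cold animal with the least muscle RNA, had the lowest cold value and lay inside the ctrl range, while ctrl 10 reached the level of cold 4. The log2 fold change was 1.96 ± 0.84 (adjusted p = 0.106, edgeR), and at equal index it was 1.02 ± 0.24 (adjusted p = 0.00692, edgeR). The value at equal index was 1.06 without cold 15, and the call was kept in each of 12 fits that left out 1 animal and in 10 of 10 other settings. The slope of Mb on the index was 0.94 ± 0.09.

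Set against Ckm, the cytosolic muscle creatine kinase, within the same library, Mb was 71.7, 70.8, 30.01, 38.6, 42.2 and 54.4% of the Ckm CPM in cold mice 4, 7, 11, 12, 15 and 16. In ctrl mice 2, 5, 6, 9, 10 and 14 it was 22.5, 22.9, 12.6, 25.9, 21.4 and 25.7%. Every cold animal lay above every ctrl animal, and the highest cold values came from 2 animals of low index, cold 4 and cold 7. Of the 34 members set against Ckm, 1 had groups that did not overlap, which was Mb, against 0.13% of all other genes tested. Every gene is divided by Ckm in this ratio, and Ckm varies widely between libraries, so nothing is read from that share. This ratio was looked at after the values of Mb were seen.

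Smpx, a small protein of striated muscle costameres, stood at 0.875 to 17.5 CPM in cold (median 1.88) and 0.0396 to 1.56 CPM in ctrl (median 0.742). It was low throughout, with 698 reads over all animals, and cold 7 stood above 4 of the 6 ctrl animals despite its low index. Its log2 fold change was 2.56 ± 0.92 (adjusted p = 0.0569, edgeR), the smallest adjusted p of the members, and at equal index it was 1.28 ± 0.34 (adjusted p = 0.00906, edgeR). Relative to Ckm it was 1.60 to 8.99% in cold and 0.275 to 2.25% in ctrl, and the groups overlapped.

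Actn2, the alpha-actinin that cross-links actin at the Z-disc in all fibre types, stood at 5.54 to 225 CPM in cold (median 18.1) and 1.94 to 17.6 CPM in ctrl (median 12.2). Cold 11, 12 and 15 lay above all ctrl animals. At equal index the log2 fold change was 0.62 ± 0.17 (adjusted p = 0.012, edgeR), kept without each animal in turn and in 10 of 10 other settings. Relative to Ckm it was 18.3 to 47.1% in cold and 10.8 to 20.8% in ctrl, so that the lowest cold value, that of cold 11, lay inside the ctrl range.

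Myot, the Z-disc protein myotilin, stood at 1.70 to 74.6 CPM in cold (median 7.95) and 0.493 to 8.16 CPM in ctrl (median 5.24). Its log2 fold change at equal index was 0.41 ± 0.15 (adjusted p = 0.0482, edgeR), and the call was kept in 4 of the 12 fits without 1 animal. Without cold 15 the adjusted p was 0.0934 (edgeR). Among the 11 genes of the Z-disc, titin and nebulin, 3 were called higher and 0 lower at equal index, with a median of 0.21. Over all genes tested 16.3% were called higher and 14.5% lower, and the list was not compared with other lists. Actn3, an alpha-actinin like Actn2 but listed here with the fast filament genes, was called lower. Ttn, titin, and Neb, nebulin, were not called (-0.10 ± 0.15 and -0.22 ± 0.17), nor were Ldb3, the PDZ and LIM protein of the Z-disc (0.21 ± 0.14), and Tcap, the titin cap (-0.30 ± 0.22).

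**Figure D4:**
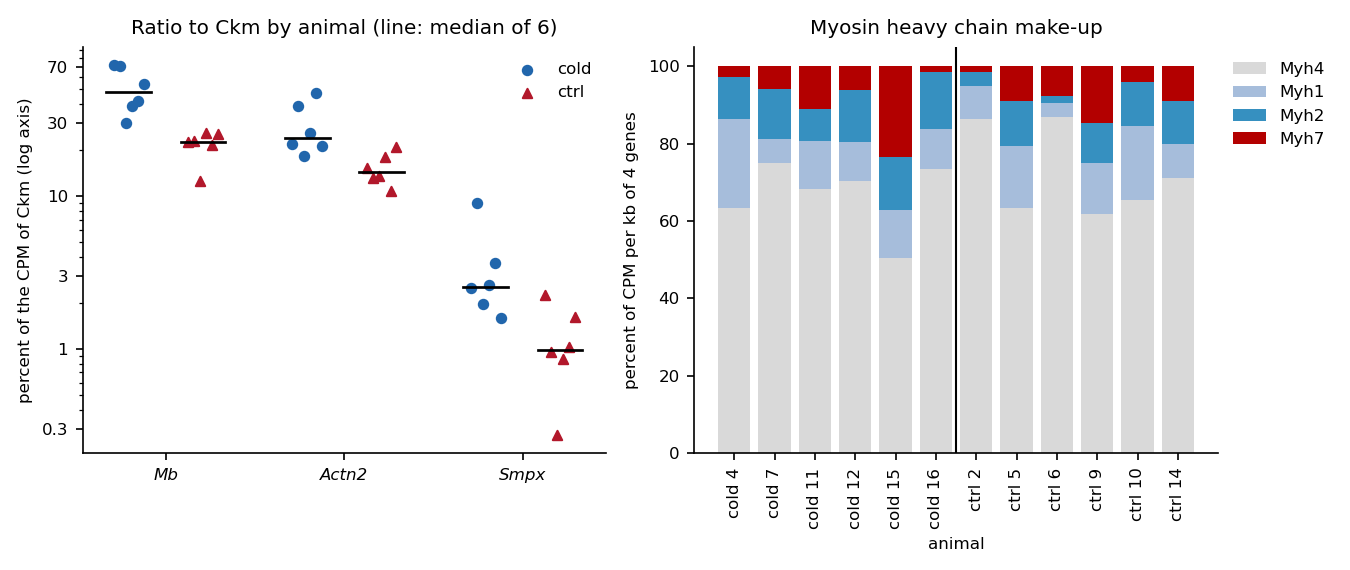
Left, CPM of Mb, Actn2 and Smpx as a percent of the CPM of Ckm in the same library, 1 point per animal (cold left of ctrl, log axis). Right, shares of 4 myosin heavy chain genes by CPM per kb in each animal. Every cold point of Mb (30.01% or more) lies above every ctrl point (25.9% or less), while the myosin shares overlap between groups and Myh7 is largest in cold 15.

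The members lower in cold at equal index were Mybpc1, Mybpc2, Casq1, Actn3 and Myl1. Mybpc1 stood at 2.66 to 127 CPM in cold (median 14.1) and 1.91 to 28.96 CPM in ctrl (median 17.3), and was lower at equal index (log2 fold change -0.51 ± 0.12, adjusted p = 0.00434, edgeR). It kept its call without each animal in turn, and lost it with an index made of fast fibre members (-0.30, adjusted p = 0.211, edgeR). Mybpc2, the fast myosin-binding protein C, stood at 2.13 to 63.5 CPM in cold and 1.48 to 24.0 CPM in ctrl, with -0.46 ± 0.16 at equal index (adjusted p = 0.0331, edgeR). The ranges of both genes overlapped between the groups.

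Casq1, the fast fibre calsequestrin, stood at 1.76 to 26.4 CPM in cold (median 6.64) and 1.05 to 13.7 CPM in ctrl (median 8.10), with -0.56 ± 0.18 at equal index (adjusted p = 0.0238, edgeR). Actn3, the fast fibre alpha-actinin, stood at 4.26 to 117 CPM in cold (median 16.0) and 2.9 to 40.9 CPM in ctrl (median 18.5), with -0.41 ± 0.15 (adjusted p = 0.0499, edgeR). Myl1 had -0.41 ± 0.13 (adjusted p = 0.0231, edgeR). All of these groups overlapped in CPM, and calls of Mybpc2 and Actn3 were kept in 5 and 3 of the 12 fits without 1 animal. With the fast fibre index, 6 members were called higher and 0 lower, and Mb (1.16, adjusted p = 0.000358), Smpx (1.49, adjusted p = 0.00647), Actn2 (0.82, adjusted p = 0.0267) and Myot (0.61, adjusted p = 0.0301) stayed higher by edgeR. With that index the values were -0.36 for Myl1 (adjusted p = 0.0578), -0.39 for Casq1 (adjusted p = 0.0838), -0.24 for Actn3 (adjusted p = 0.103), -0.30 for Mybpc2 (adjusted p = 0.106) and -0.30 for Mybpc1 (adjusted p = 0.211), by edgeR. Actn3 and Myl1 are themselves among the genes of that index.

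Of the remaining calcium-handling genes, Pvalb, the fast fibre calcium buffer parvalbumin, had -0.38 ± 0.21 at equal index, Cacna1s, the voltage sensor of the transverse tubule, -0.07 ± 0.19, and Trdn, triadin of the release complex, -0.02 ± 0.18. None of the 3 was called (adjusted p of 0.212, 0.83 and 0.947, edgeR). Ckm had -0.21 ± 0.12 (adjusted p = 0.188, edgeR). The slow filament genes other than Mybpc1 ran from -0.67 (Myl2) to -0.07 (Tnnt1) with SEs of 0.32 to 0.61, and were not called.

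The make-up of the myosin heavy chains varied between animals, and the groups overlapped. Of the CPM per kb of Myh4, Myh1, Myh2 and Myh7, Myh4 made up 66.8 ± 9.05% in cold and 72.5 ± 11.4% in ctrl (SD, n = 6 each). Myh7 made up 1.54% to 23.4% in cold, highest in cold 15, and 1.37% to 14.6% in ctrl, highest in ctrl 9. Myh2 made up 12.3 ± 2.38% in cold and 8.33 ± 4.45% in ctrl, where ctrl 2 and ctrl 6 had 3.75% and 1.61%. The slow share of troponin I (Tnni1 of Tnni1 plus Tnni2) was 1.04% to 13.96% in cold and 1.53% to 6.65% in ctrl, and that of the regulatory light chain (Myl2 of Myl2 plus Mylpf) was 3.67% to 40.9% in cold and 3.90% to 21.7% in ctrl. That of troponin T (Tnnt1 of Tnnt1 plus Tnnt3) was 2.86% to 13.4% in cold and 2.82% to 8.26% in ctrl. That of troponin C (Tnnc1 of Tnnc1 plus Tnnc2) was 9.14 ± 4.95% in cold and 15.7 ± 8.82% in ctrl (SD, n = 6 each), highest in ctrl 2 at 27.96% and ctrl 6 at 22.6%. The Tnnc1 sum includes a transcript with a retained intron, Tnnc1-201, at 0.974 CPM in ctrl 2, 0.509 in ctrl 6 and 0.768 in cold 4. The coding Tnnc1-202 had 0.487, 0.509 and 0.668 CPM there, so these shares are not those of coding RNA alone. All groups overlapped, and cold 15 had the highest slow share of troponin I, troponin T and the light chain, but not of troponin C. Myh1, Myh2 and Myh4, neighbours on chromosome 11, are near copies of each other, while Myh7 lies on chromosome 14. How the authors' estimation divided reads shared among myosin genes is uncertain.

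Of the 35 members, 18 had at least 2 transcripts past the filter. Transcript usage differed between cold and ctrl in 0 of these 18, against 1.45% of 7233 genes by edgeR and 3.12% by limma, which also called none of the 18. Mb-203, whose start is that of the Mb sequence printed above, held most reads of Mb in every library except ctrl 6, where it had 0.626 CPM. Whether transcripts of a gene had different slopes on the index was asked after the values were seen. By edgeR 1 of the 18 was called (Tnnc1, adjusted p = 0.0106), against 0.29% of genes, and by limma 2 (Tnnc1, adjusted p = 0.0107, and Myl1, adjusted p = 0.00616), against 0.733%.

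Tnnc1 had a coding transcript, Tnnc1-202, at 0.269 to 36.7 CPM in cold and 0.487 to 2.64 CPM in ctrl, with a slope of 1.3. Its transcript with a retained intron, Tnnc1-201, stood at 0.215 to 0.910 CPM in cold and 0.509 to 0.974 CPM in ctrl, with a slope of 0.14. Only the coding one was far higher in cold 15 than elsewhere. For Myl1 the slopes were 0.61 for Myl1-201, 0.29 for Myl1-202 and 0.079 for Myl1-206. Myl1-206 stood at 7.6 to 11.7 CPM in cold and 9.19 to 14.6 CPM in ctrl, and so did not follow the index. Myl1-201 stood at 2.91 to 42.5 CPM in cold and 5.59 to 17.8 CPM in ctrl.

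**Figure D5:**
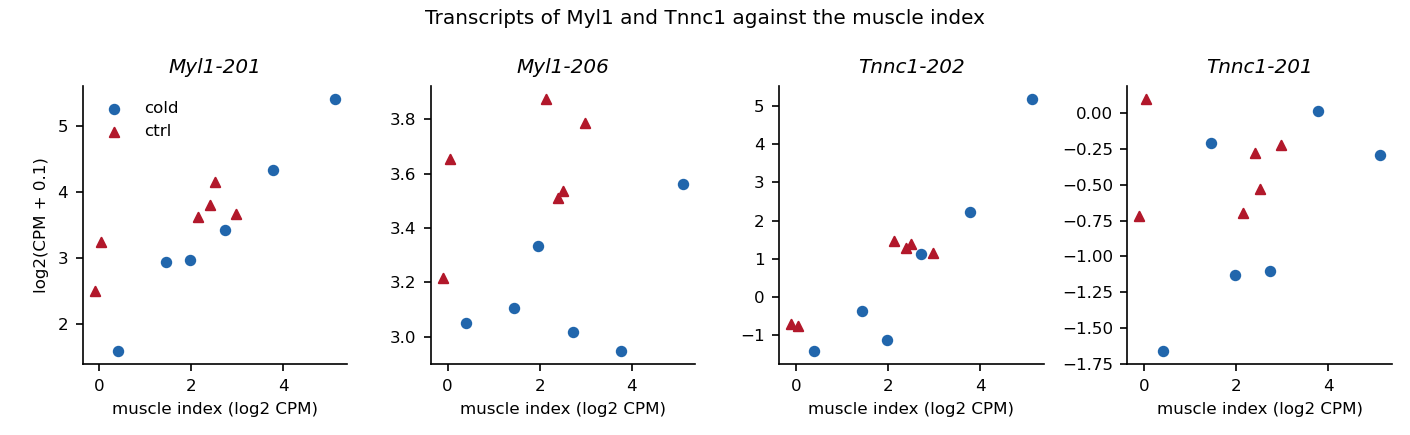
Log2(CPM + 0.1) of 2 transcripts of Myl1 and 2 of Tnnc1 against the muscle index, 1 point per animal (cold circles, ctrl triangles), each panel with its own axis. Myl1-201 and Tnnc1-202 rise with the index (slopes 0.61 and 1.3), while Myl1-206 and the retained-intron transcript Tnnc1-201 do not (slopes 0.079 and 0.14).

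Genes outside the set show how far the pattern reached. All 18 index genes had a called positive slope by construction, and 170 genes outside the set and the index did as well. Over all genes tested, 1.6% had a called positive slope, and 16.2% were called higher and 15.4% lower in cold. Of 10 genes of muscle energy supply 6 did, and 1 was higher in cold (Phka1, a phosphorylase kinase subunit, 0.41 ± 0.14, adjusted p = 0.0289, edgeR). Of 12 cardiac genes 4 passed the filter. Of these, 2 had a called positive slope, Csrp3, a LIM protein that skeletal muscle also makes (1.38), and Myl3, the slow and cardiac essential light chain (1.04), both highest in cold 15 at 84.3 and 41 CPM. Myl4, the atrial light chain, was lower in cold (-0.65 ± 0.20, adjusted p = 0.0204, edgeR). Myh6 and Tnni3, the cardiac myosin and troponin I, had 38 and 61 reads over all animals, and Nppa and Myl7 had 0. Of 12 myogenic, satellite cell and neuromuscular genes 4 passed the filter, and 1 of these had a called slope (Mef2c, 0.24). Mef2d was higher in cold (0.21 ± 0.07, adjusted p = 0.0199, edgeR). Myod1, Myog and Pax7 had 29, 54 and 5 reads over all animals. The developmental myosins, 3 genes, all fell below the filter. In cold 15 Myf6, a myogenic factor of mature fibres, stood at 6.08 CPM, Musk, a kinase of the neuromuscular junction, at 2.05 CPM and Myh3, the embryonic myosin, at 2.4 CPM. The next highest values were 1.185 for Myf6 and 0.377 for Musk (both cold 11), and 0.114 for Myh3 (ctrl 9). Myf6, Musk and Myh3 fell below the filter and were not tested. Myog, Chrna1 and Myh13, among others, were also highest in cold 15. Myh8 (0.131 CPM there, 0.408 in cold 16) and Myf5 (0.0874 there, 0.162 in cold 11) were not.

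The counts of the next lists stand beside the same background, 16.2% of all genes called higher and 15.4% lower in cold, and 1.6% with a positive slope. Nothing is read from the cold counts of such short lists. Of 10 smooth muscle genes, 2 had a called slope, and in cold 2 were higher and 1 lower: Cnn1, calponin (0.9 ± 0.20, adjusted p = 0.00212), Mylk, the myosin light chain kinase (0.34 ± 0.09, adjusted p = 0.00666), and Myh11, the smooth muscle myosin (-0.32 ± 0.10, adjusted p = 0.0232), by edgeR. Of 13 actin-binding and Z-disc relatives, 6 had a called slope and 4 were higher in cold, among them Fhl1, a LIM protein (1.38 ± 0.23, adjusted p = 0.000638), and Actn4, the non-muscle alpha-actinin (0.35 ± 0.07, adjusted p = 0.00193), by edgeR. Of 6 globin and erythroid genes tested, 0 had a called slope and Cygb, cytoglobin, was lower in cold (-0.54 ± 0.10, adjusted p = 0.00037, edgeR). The haemoglobin genes Hba-a1, Hba-a2, Hbb-bs and Hbb-bt ran from 0.009 to 0.13 and were not called. Of 8 brown adipocyte genes, 0 had a called slope, 4 were higher and 1 lower in cold. The part that the amount of muscle in each dissected depot has in the members' levels was not tested.

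The genes whose log2 CPM across the 12 animals was most like that of Mb, among 10037 genes whose mean log2 CPM reached 2, were H19 (Pearson r = 0.973), an imprinted long non-coding RNA, Ckmt2 (0.965), the mitochondrial creatine kinase of muscle, Eef1a2 (0.965), the elongation factor of muscle and neurons, Cmya5 (0.952) and Lmod2 (0.951). These values describe 12 libraries that share 1 dominant axis, the muscle index. At equal index Ckmt2 was higher in cold (0.62 ± 0.18, adjusted p = 0.016, edgeR). It was picked for its likeness to Mb in the same animals, so this call is no separate evidence on Mb. Values at equal index of the other genes named here are not given.

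For 19 members an annotated gene on the opposite strand overlaps, among them Mb, whose gene body overlaps Apol6 and an antisense transcript, and 5 have an overlapping gene on the same strand. The libraries were strand-specific, but no source used here gives the strand setting of the estimation, so reads of such pairs are uncertain.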

How the data were processed

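Poly(A) RNA of brown adipose tissue from 12 mice was sequenced as directional 50 nt pairs, per the labels' protocols. Tools named in the submitters' processing notes are bcl2fastq, cutadapt and Salmon, with GRCm38, all without versions. No source used here gives the annotation release that Salmon ran on. The deposited files hold an estimated count and a TPM (abundance scaled by effective length) for each of 140658 transcripts per animal, per the file headers. Between 29.5% and 32.6% of estimated counts were not whole. TPM were used only for usage shares, because 55.2% of the deposited TPM lay in transcripts of effective length under 50 nt in ctrl 2, and 2.36% to 8.41% in the other libraries.

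Transcripts were matched to GENCODE M21 genes without version: 140137 matched (139921 with the same version), and the 521 others, with 0.0866% to 0.152% of reads, were dropped. Gene sums were rounded to whole numbers, filtered with filterByExpr (minimum count 10), TMM-scaled, and compared with edgeR's robust quasi-likelihood test, two-sided, Benjamini-Hochberg over all 13876 genes, threshold 0.05. A second fit added the muscle index, the mean log2 CPM (prior count 2) of 18 genes, and tested both cold at equal index and the slope. The SE of a log2 value is its size over the square root of F. Usage was tested with edgeR's diffSpliceDGE where 2 or more transcripts of a gene passed the filter. On simulated counts with changes put into genes drawn at random, the gene tests recovered what was put in. There diffSpliceDGE made more false calls than limma's F test, so both are given. The members were not simulated as a set, and their median SE in the cold fit was 0.91. The simulation therefore does not give the size of change that would be called in a member. The index was compared by an exact permutation test. Promoter sequences are RefSeq's (GRCm38.p6), and coordinates those of GENCODE M21 on GRCm38.

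Members and lists were chosen with earlier results of these data known. The members named in full were Mb, given per animal, and those called in either cold fit and the fast and the slow member of highest mean CPM per kb, given mostly by group ranges and medians. Other lists are given as counts with up to 3 called genes of smallest p, and genes named beyond that were chosen after seeing them. Alternatives were scaling by RLE factors or library totals, no filter, a filter of CPM of at least 1 in 6 libraries, DESeq2, limma-voom, 2 other forms of the index, Simes and limma for usage, and each animal left out. Leaving out ctrl 2 and cold 15 together, and a second covariate of slow fibre members, were added after seeing the data. Mouse numbers differ between groups, so nothing was paired, and no batch is labelled. Each mouse has its own number, so p-values measure the spread between animals. Work was done in R 4.3.3 (edgeR 4.0.16, limma 3.58.1, DESeq2 1.42.0) and Python 3.11.15 (NumPy 2.4.6, pandas 2.3.3, SciPy 1.17.1, matplotlib 3.10.9).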

Additional observations from a re-analysis of the deposited data

How the results depend on the processing

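No paired analysis was possible because the groups share no mouse numbers. Mb, Smpx and Actn2 kept their direction and their call at equal index in all 10 other settings and in all 12 fits without 1 animal. Mybpc1 kept its call in 9 of 10 settings and in 12 of 12 such fits, Myl1 and Casq1 in 9 of 10 and 9 of 12, Mybpc2 in 9 of 10 and 5 of 12, Myot in 7 of 10 and 4 of 12, and Actn3 in 4 of 10 and 3 of 12. The number of members called lower at equal index was 5, 0 with the fast fibre index, and 2 to 9 without 1 animal, lowest without cold 7, cold 12, cold 16, ctrl 5, ctrl 10 or ctrl 14, 3 without cold 15 and highest without cold 4. The number called higher was 4, 6 with the fast fibre index, and 3 to 4 without 1 animal. In the fit without the index, DESeq2 called 3 members, and 0 to 1 were called without 1 animal, the 1 call without cold 4 or cold 16. With library totals the median of all genes moved up by 0.09, the lower calls over all genes numbered 1409 against 2134, and the share of higher calls was 67.3% against 51.3%.

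The cold log2 fold change of Myl1 was -0.018, 0.086 with library totals, 0 without a filter, and -0.356 to 0.107 without 1 animal. That of Tnnt3 at equal index was 0.037, -0.057 with the slow fibre covariate, and -0.159 to 0.12 without 1 animal. Mybpc1 ran from -0.111 to 1.388 and Casq1 from -0.118 to 0.775 in the fit without the index when 1 animal was left out, both lowest without cold 15. Without ctrl 2 and cold 15 the values were -0.206 for Actn3, -0.18 for Mybpc2, -0.334 for Mybpc1 and -0.335 for Casq1. With the slow fibre covariate, made of Myh7, Myl2, Tnnt1, Tnni1 and Tnnc1, 23 members had a called slope. The slopes were -0.111 for Myh7, -0.102 for Myl2, -0.269 for Tnnc1 and -0.277 for Casq2. Myh7, Myl2 and Tnnc1 are themselves part of that covariate, so nothing is read from their slopes in this fit. The index difference was 0.08 to 1.03 in other settings and 0.403 to 1.35 without 1 animal, with exact permutation p of 0.154 or more in every one. Usage calls over all genes numbered 105, 16 by Simes, 226 by limma, and 63 to 229 without 1 animal, with 0 members in each. The causes of these changes were not tested. Depth limits Smpx and Casq2 most, with 698 and 435 reads in all.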
